A study of Saccharomyces cerevisiae with 9 samples.

Results

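The transcriptome described here is that of wild type yeast grown for 24 h, in 3 of the 9 libraries of a study of the eisosome, the plasma membrane domain that Pil1 and its partner proteins build. The libraries were taken by their labels, and all 6215 genes of the deposited table were ranked by mean normalized read count. The strain is the Saccharomyces cerevisiae laboratory strain BY4742, a haploid of mating type α with the genotype MATα his3Δ1 leu2Δ0 lys2Δ0 ura3Δ0. The 3 biological replicates, called replicates 1, 2 and 3, had no treatment listed and were grown in synthetic complete medium at 28 °C. Cells of all libraries were washed in 10 mM NaF and NaN3 before they were broken open. The other 6 libraries came from eisosome deletion strains and are not described. The labels give neither the cell density nor the glucose left at harvest, and they call the replicates biological without saying whether each was a separate culture. Fewer cells of a kind and less RNA per cell cannot be told apart in such samples.

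Budding yeast first ferments glucose to ethanol through glycolysis and pyruvate decarboxylase, and respires the ethanol once glucose runs out. As growth slows, cells lower ribosome production and raise stress, chaperone and storage carbohydrate genes. Many of its enzymes exist as pairs of paralogs, most of them left by an ancient whole-genome duplication, and often only one gene of a pair is used strongly at a time.

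The libraries held 26381388, 25137073 and 24932904 reads over the listed genes. A level is given either as the deposited normalized read count, which compares libraries, or as TPM, computed here by scaling reads per kilobase of coding sequence to the same total in each library, which compares genes. Of the 6215 genes, 5919 were protein-coding, 293 were of other kinds and 3 were not found in the reference annotation. Genes not annotated as protein-coding took 0.0413% of all reads in these libraries of polyadenylated RNA. Pairs of libraries had Pearson correlations across 5887 genes of 0.979 for replicates 1 and 2, 0.989 for 1 and 3 and 0.983 for 2 and 3, on log2(value + 1). Replicate 2 stood somewhat apart, and replicate 1 had almost no reads from 4 genes near the left end of chromosome I. Both facts are described further on.

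LYS2, deleted in this strain, had 0 reads in all 3 libraries. A count of 0 allows up to 3 reads per library, or 2.57, 2.46 and 2.76 normalized reads. HIS3, of which his3Δ1 removes only a part, had 10839, 9845 and 10455 reads. Where in the gene these reads lie is not known from a gene table, and HIS3 was kept at full length in the lists. LEU2 and URA3 are not analysed here. MET17, which some related laboratory strains lack and BY4742 carries, had a mean of 25509 ± 2392 normalized reads (SD, n = 3), although it overlaps another annotated gene. All 5 genes that α cells use, among them the pheromone gene MF(ALPHA)1 and the a-factor receptor gene STE3, were read. MF(ALPHA)1 stood at 8536, 6695 and 6843 normalized reads and STE3 at 2442, 2637 and 2625. The 7 genes specific to a cells, the α2 protein's repression targets, were also detected, but none of them reached the coding-gene median of 60.5 TPM. STE2, the α-factor receptor gene of a cells, had a mean of 29.3 TPM, and BAR1, the protease that degrades α-factor, had 7.01 TPM. The median of the a-specific list was 29.3 TPM, and that of the α-specific list was 109.8 TPM. Of the 5 α-specific genes, 4 were above the coding-gene median. The exception, MF(ALPHA)2 at 48.8 TPM, was also below the a-specific gene MFA1 at 56.5 TPM. By the medians of the 2 lists, the markers match the labelled mating type.

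All 7 a-specific genes have CATGTAA, a part of the site bound by the α2 repressor with Mcm1, within 300 bases upstream of the start codon on either strand, against 3.96% of the 5903 nuclear coding genes with such a window. The stretches below carry that motif in capitals and are shown as examples from the a-specific list. These libraries hold no a cells, so repression of these genes was not tested. They are reference sequence (RefSeq, build R64), written 5′ to 3′ on the gene's strand, from chrVI:82340-82368 (plus strand) and chrIX:322090-322118 (plus strand).
STE2: gttttttcaacCATGTAAatttcctaatt
BAR1: gtaaaaggaaaTTACATGgcgagtgtcac

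Expression was concentrated in few genes. By normalized count, which favours long genes, the 13 highest genes held 10% of all reads, 76 held 25%, 430 held 50% and 2869 held 90%. Computed per kilobase, 345 genes held 50%. By class, 152 coding genes had at least 1000 TPM and took 29.8% of the reads. Another 1747 had 100 to 1000 TPM, 3532 had 10 to 100, 355 had 1 to 10 and 133 had less than 1 TPM.

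PDC1, the main pyruvate decarboxylase on the path from pyruvate to ethanol, was the most counted gene. It had 646715, 504008 and 503327 normalized reads. TDH3, the main glyceraldehyde-3-phosphate dehydrogenase of glycolysis, followed with 285380, 243343 and 304744. PDC1 and TDH3 were far above every other gene in all 3 libraries, and together they made up 3.76% of the reads. PMA1, the plasma membrane proton pump, was the third at 166078, 114127 and 173403. LEU4, which makes α-isopropylmalate in the first committed step of leucine synthesis, was the fourth at 166685, 133330 and 144913. The ranges of PMA1 and LEU4 overlapped, so their order is not resolved. HSP104, the chaperone that takes apart protein aggregates, had 116587, 149311 and 155080, and its range overlapped those of PMA1 and LEU4 as well. The 25 most counted genes took 14.5% ± 0.867 of the reads (SD, n = 3).

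**Figure D1:**
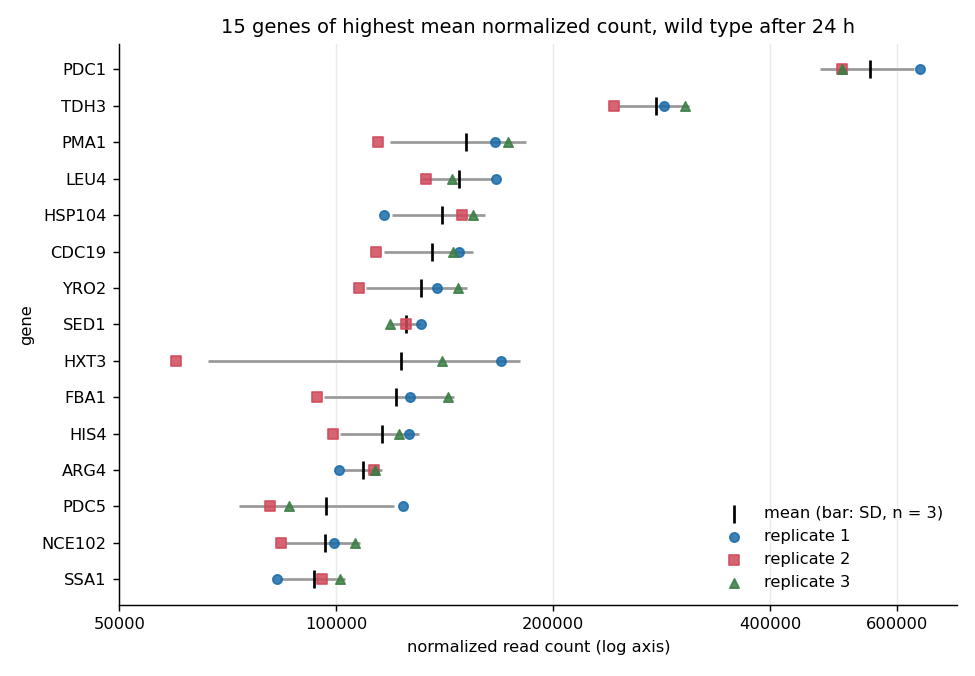
Normalized read count of the 15 genes of highest mean in wild type yeast after 24 h, on a log axis; points are the 3 libraries, black ticks the means and grey bars the SD (n = 3). PDC1 and TDH3 lie above all other genes in each library, and HXT3 has the widest spread, from 59917 in replicate 2 to 169456 in replicate 1.

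The 25 genes fell into a few functions. Glycolysis and ethanol formation supplied PDC1, TDH3, CDC19 (pyruvate kinase), FBA1 (aldolase), PDC5, PGK1 (phosphoglycerate kinase) and ENO1 (enolase). Genes of amino acid synthesis included LEU4, LEU1, ILV2, ILV5, HIS4, ARG4 and ASN1, the last of which makes asparagine. Chaperone and stress genes were HSP104, SSA1, HSP12, HSP26 and AHP1, the last a peroxiredoxin. The cell surface supplied PMA1, YRO2 (a membrane protein related to Hsp30), SED1 (a wall mannoprotein), HXT3 (a low-affinity glucose transporter) and NCE102, an eisosome-associated membrane protein. Mean counts from the sixth to the last of the 25 ran from 135622 for CDC19 down to 70426 for ENO1.

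Per kilobase, short genes moved up. HSP12, a small membrane-associated stress protein, was the third at 11642, 9722 and 14399 TPM, after PDC1 with a mean of 16562 ± 2408 TPM and TDH3 with 14082 ± 596 (SD, n = 3). The fourth was YDR524W-C, a small gene of unknown function, at 10201, 10018 and 10088 TPM. SPO24 (9374 TPM), NCE102 (9358), AHP1 (8464), DDR2 (6856), YRO2 (6397), SED1 (6263), YDR524C-B (5954), HSP26 (5804), FBA1 (5653), CPR1 (4980) and CDC19 (4565) completed the 15 highest means. DDR2 is a stress gene and CPR1 is cyclophilin A, a peptidyl-prolyl isomerase.

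Glycolysis and ethanol formation took 8.17%, 7.09% and 7.72% of the reads with 21 genes, and 14 of them were among the 100 most counted genes. Their median was 1687 TPM, far above that of all coding genes. FBA1 had a mean of 5653 ± 778 TPM and CDC19 had 4565 ± 374 (SD, n = 3). The lowest member was PDC6, a pyruvate decarboxylase isozyme, at 18.6, 13.5 and 16.5 TPM.

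The next steps of carbon metabolism were lower. The 17 genes of the tricarboxylic acid cycle took 0.610% ± 0.0485 of the reads and the 37 of the respiratory chain and ATP synthase 0.893% ± 0.0134 (SD, n = 3). ATP2 and ATP1, the β and α subunits of the ATP synthase, had 1029 ± 60.2 and 778 ± 43.8 TPM, and SDH2, a succinate dehydrogenase subunit, 459 ± 12.4 TPM. All but 1 gene in each list were above the coding median, the exceptions being CIT3, a minor mitochondrial citrate synthase, at 9.42 TPM and CYC1, cytochrome c, at 39.1 TPM. Of 18 genes of gluconeogenesis and the glyoxylate cycle, only 6 were above the median. Their highest member was MDH2, cytosolic malate dehydrogenase, at 283 ± 39.8 TPM, and the lowest was ADY2, an acetate transporter, at 7.18 TPM.

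Hexose transport rested on few genes. HXT3 stood at 4954, 1938 and 3934 TPM. HXT5, a transporter known from slow growth, followed at 919, 1053 and 1193 TPM, and HXT4 at 1421, 395 and 607. HXT3 and HXT4 were lowest in replicate 2, whereas HXT5 was not. HXT10 was the lowest at 0.395 TPM, and 2 of the 19 genes were under 1 TPM. The 19 genes together took 1.30%, 0.625% and 1.08% of the reads, a range in which replicate 2 lay lowest.

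By read count, amino acid synthesis, joined from several lists, took the largest share among the lists examined. Per kilobase it took 6.73%, less than the 8.31% of the cytosolic ribosomal proteins described further on. Its 97 genes, from lists that also hold sulfate assimilation and arginine breakdown, took 10.2%, 9.10% and 9.03% of the reads. Its rank depends on that joining. The part with the remaining amino acid genes, 35 genes and 2.80% of the reads, was added after values were seen. Glycolysis and ethanol formation, at 7.66%, was the largest list that was not joined. Amino acid synthesis is taken here as all 97 genes. Of these, 88 were above the coding median and 23 were among the 100 most counted genes. The 11 branched-chain genes took 2.51% ± 0.363 (SD, n = 3) with a median of 1722 TPM. Their highest members were LEU4 at 4047 ± 378 TPM, ILV5 (acetohydroxyacid reductoisomerase) at 3069 ± 379 and BAT1 (mitochondrial branched-chain aminotransferase) at 2541 ± 543. The lowest branched-chain member was LEU3, the regulator of this pathway, at 64.4 TPM.

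The 12 genes of arginine synthesis and use took 1.87% ± 0.188 of the reads. ARG4, argininosuccinate lyase, had 3616, 4464 and 3889 TPM. CPA1, the small subunit of carbamoyl phosphate synthetase, had 2471, 2267 and 2436, and ARG1, argininosuccinate synthase, 1631, 1997 and 1635. These genes differed by at most 1.24-fold between libraries in normalized count. The lowest member was CAR1, arginase, which breaks arginine down, at 45.7 TPM. Histidine synthesis took 0.826% ± 0.0565 with 7 genes, led by HIS4 at 2443 ± 171 TPM. Sulfate assimilation and methionine synthesis took 1.09% ± 0.120 with 22 genes, led by MET6, methionine synthase, at 1392 ± 219 TPM. In lysine synthesis LYS20, homocitrate synthase, was highest at 797 ± 32.6 TPM with 62.2% unique sequence, and LYS2 was at 0.

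GCN4, the transcription factor that activates amino acid synthesis genes, was the 62nd most counted gene, with 45008, 30419 and 37145 normalized reads. TGACTC, the core of the site it is known to bind, was searched on both strands within 300 bases upstream of the start codon. It was present for 51 of the 97 amino acid genes, that is 52.6%, against 7.86% of all 5903 nuclear coding genes. By pathway it was found for 10 of 12 arginine genes, 8 of 11 branched-chain genes and 6 of 7 histidine genes. Neither the presence nor the absence of these letters in a window shows whether the factor binds, and LEU1, ILV2 and MET6 have none. The RNA level of GCN4 does not give the activity of its protein, which was not tested. The 6 most counted amino acid genes with room for the surrounding bases are shown, with the 6 letters in capitals, since they are among the largest contributors to the reads of the whole transcriptome. They lie at chrXIV:426838-426867 (LEU4, minus strand), chrIII:68515-68544 (HIS4, minus), chrVIII:141564-141593 (ARG4, minus), chrXVI:822381-822410 (ASN1, plus), chrXII:839376-839405 (ILV5, minus) and chrX:466326-466355 (ILV3, minus) of R64.
LEU4: cttacgtgtaagTGACTCagttctttcaaa
HIS4: acccatgcacagTGACTCacgtttttttat
ARG4: ttagtagatgaaTGACTCactttttggata
ASN1: tcatgtaacattTGACTCattctgtaaact
ILV5: gatgacctaactTGACTCaatggcttttac
ILV3: ttcctctccagaTGACTCagtaatatagta
HIS4 has 3 such matches in its window and each of the other genes shown has 1.

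Chaperones and stress genes came next. The 28 heat shock chaperones took 3.60%, 4.41% and 4.42% of the reads, and 10 of them were among the 100 most counted genes. HSP26, a small heat shock protein, stood at 5047, 5537 and 6827 TPM, HSP104 at 2130, 3018 and 2720, and SSA1, an Hsp70, at 2135, 2733 and 2513. On this scale all 3 genes were lowest in replicate 1. Only 42.1% of SSA1 is unique sequence, so its level is uncertain. The lowest chaperone-list member was HSP32, a gene near a chromosome end with 0% unique sequence, at 9.93 TPM. The 34 general stress genes took 2.50% ± 0.393 (SD, n = 3), and 32 were above the coding median, led by HSP12, DDR2 and HOR7. Trehalose and glycogen genes took 0.765%, 1.46% and 1.08%, with TPS1, trehalose-6-phosphate synthase, at 691, 1177 and 1026 TPM. AHP1, SOD1 (copper-zinc superoxide dismutase, 1715 ± 242 TPM) and TSA1 (peroxiredoxin, 1498 ± 113 TPM) led the 28 antioxidant genes.

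Other motifs were counted in the same 300-base windows. AGGGG, the stress response element bound by Msn2 and Msn4, was found for 26 of 34 general stress genes and 10 of 18 trehalose and glycogen genes. The share was 22.4% of all nuclear coding genes and 39% of the 200 highest per kilobase. GAANNTTC, a heat shock element unit, was found for 13 of 28 chaperone genes against 11.6%. TATAAA was found for 19 of the 25 most counted genes against 47.9%, and for 39 of 138 ribosomal protein genes. CTTCC, the Gcr1 site, was found for 12 of 21 glycolytic genes against 45.1%. It was also found for 17 of 28 chaperone genes and 75 of 138 ribosomal protein genes, so it does not set the glycolytic genes apart. CCCATAC, a Rap1 core, was found for 12 of 138 ribosomal protein genes against 1.97%.

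Genes of protein synthesis were high but few reached the top by count. The 138 cytosolic ribosomal protein genes took 3.64%, 3.02% and 3.40% of the reads, and 8.31% on the TPM scale, the largest share of any list on that scale. Of these genes, 136 were above the coding median, but only 1 was among the 100 most counted. RPP2B, a stalk protein, had 2252, 2235 and 1994 TPM, and RPS31, a fusion of ubiquitin with a ribosomal protein, had 1892, 1886 and 1943. RPL41B, whose short sequence is only 31.0% unique, had a mean of 1937 ± 314 TPM. The lowest member was RPS9A at 58.7 ± 9.96 TPM. The 31 translation factors took 1.28% ± 0.220 of the reads, led by TEF2, EFB1 and YEF3.

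Among protein turnover genes, all 34 proteasome genes were above the coding median, from RPN9, a lid subunit, at 147 TPM to UBI4, the polyubiquitin gene counted with them, at 1681 ± 117. The 14 genes of the proteolytic core had a median of 296 TPM, and the proteasome list took 0.999%, 1.04% and 1.01% of the reads. The share was highest in replicate 2, although 29 of the 34 genes had their lowest normalized count there, against 37.6% of all genes. Scaled by total reads, 10 of the 34 were lowest there. The 16 vacuolar genes were also all above the median, led by PEP4, the vacuolar proteinase A, at 1240 ± 117 TPM.

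At the cell surface, the 48 wall genes took 2.26% ± 0.0419 of the reads, with SED1 at 6263 ± 612 TPM, CCW12 at 4105 ± 237 and CWP2 at 2612 ± 310, all of them wall mannoproteins. DAN1, a wall protein known from anaerobic growth, was the lowest at 0.913 TPM. The 16 eisosome genes took 0.928% ± 0.0802. NCE102 had 9467, 8860 and 9747 TPM, LSP1 1133, 1761 and 1543, and PIL1 775, 1100 and 1004. PIL1 and LSP1, the core proteins that shape the furrow, were both lowest in replicate 1, while NCE102 was lowest in replicate 2.

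Genes of division and meiosis were low. Of 29 cell cycle genes, 4 were above the coding median, and the highest were RNR4 and RNR2, subunits of ribonucleotide reductase, at 612 ± 60.3 and 332 ± 45.8 TPM. The lowest cell cycle gene was CLB2, the mitotic cyclin, at 1.53, 3.15 and 1.91 TPM. Of 53 meiosis and sporulation genes only REE1 was above the median, at 165 ± 8.33 TPM, and REE1 is better known for a role in regulating enolase. SPR28, a sporulation septin, was the lowest at 0.440 TPM, and 5 of the 53 were under 1 TPM.

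**Figure D2:**
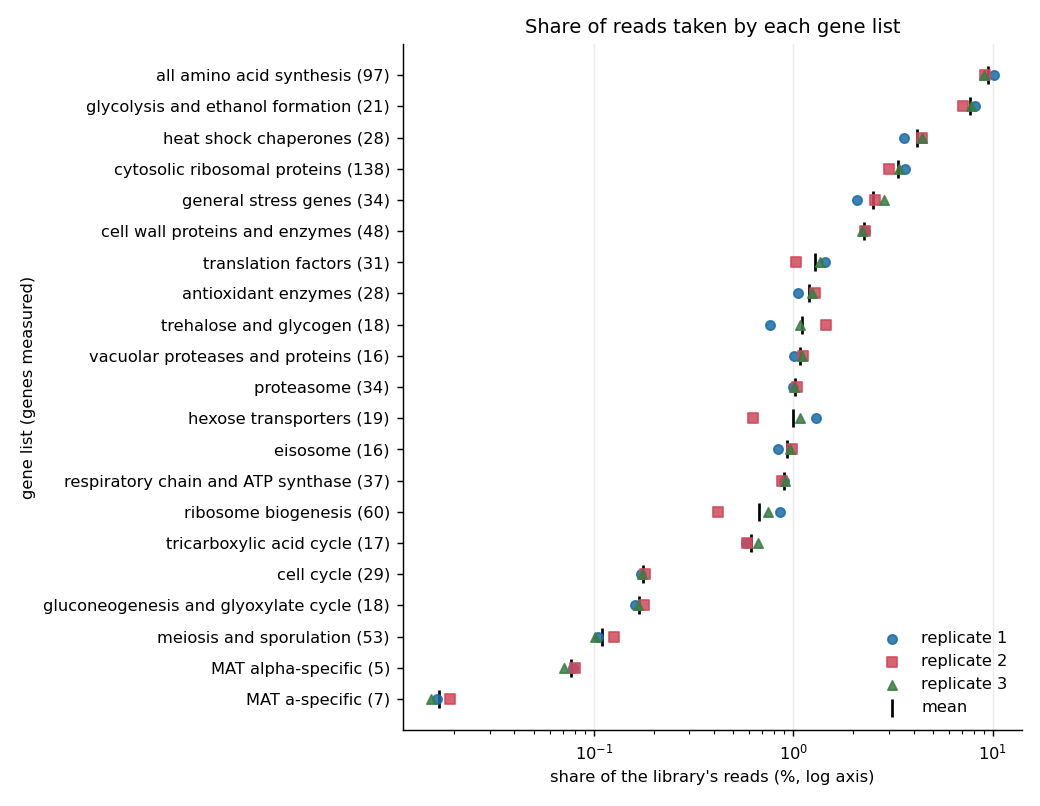
Share of each library's reads (percent, log axis) taken by 21 gene lists, with the number of genes measured in brackets; points are the 3 libraries and black ticks the means. Amino acid synthesis, which is joined from several lists (9.43%), and glycolysis and ethanol formation (7.66%) lead, and the a-specific genes (0.0168%) are last.

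The genes that were not read were few. Only 3 genes had 0 reads in all 3 libraries, namely LYS2, the transfer RNA gene SUP5 and the non-coding gene YNCP0020W. Leaving out replicate 1, 2 or 3 gave 7, 6 and 12 such genes. With fewer than 3 reads in every library there were 70 genes, 17 of them coding, and with fewer than 10 there were 248, 77 of them coding. These 248 stand against 6215 genes in all. Transfer RNA genes supplied 124 of the 248, which is 124 of the 177 measured. The libraries were made from polyadenylated RNA, so low counts of transfer RNA and other non-coding genes say nothing about their transcription. Whether a coding gene at so few reads is transcribed at all was not detectable at this depth.

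The 77 coding genes under 10 reads were set beside all coding genes by place, copies and length. Of them, 25 (32.5%) lay within 20 kb of a chromosome end, against 4.09% of all coding genes. Both figures include mitochondrial genes, such as Q0255 and AI5_ALPHA, placed by the ends of the mitochondrial reference sequence. Among nuclear coding genes, 13.4% within 10 kb of an end and 6.61% at 10 to 20 kb had under 10 reads in each library. Beyond 80 kb it was 0.883%. Another annotated gene at least 90% identical existed for 33 (42.9%) of the 77, against 6%. An overlapping gene on the same DNA also counted, as MTO1 did for YGL235W, whose sequence is 100% unique. The 33 therefore include genes without a second copy elsewhere. The 77 genes were also short, with a median of 354 bp against 1194 bp. Reads from identical copies cannot be assigned, so low counts of such genes are uncertain. Among genes with fully unique sequence, LDS1, OSW1 and PFS1, all known from spore formation, had 0 to 7 reads in any library. Other genes with fully unique sequence were as low, such as ECM23, GAT3 and RRT7, so such low counts are not particular to spore genes.

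Levels were higher farther from the chromosome end. The median was 5.11 TPM for 112 coding genes within 10 kb, 20.2 for 121 genes at 10 to 20 kb, 52.8 for 278 genes at 20 to 40 kb, 61.3 for 637 genes at 40 to 80 kb and 63.3 beyond. In the first bin the median gene had only 28.0% unique sequence, whereas in all the others it had 100%. The highest gene within 10 kb was COS6, of a membrane protein family involved in protein sorting, at 206, 260 and 244 TPM. The PAU genes, a family of cell wall proteins known from anaerobic growth, had 11 of 23 members under 1 TPM. The subtelomeric YRF1 helicase genes had 5 of 6 under 1 TPM. Of all coding genes, 2.25% were under 1 TPM. Several of the low PAU genes, such as PAU6, PAU14 and PAU18, have 0% unique sequence, so their low values are uncertain.

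Single genes of other lists were also low. GAL10, the lowest of 5 genes of galactose use that had a median of 15.9 TPM, had 0.913, 1.14 and 0.670 TPM. THI5, the lowest of 22 thiamine genes that had a median of 27.7 TPM, had 0.342 TPM but only 15% unique sequence, and it also lies within 20 kb of a chromosome end. The 7 mitochondrially encoded protein genes took 0.00169%, 0.00134% and 0.000285% of the reads. Their transcripts carry no stable poly(A) tail in yeast, and these libraries were made from polyadenylated RNA.

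Paralog use was examined over 593 pairs, 566 of them reciprocal best hits and 108 from a list of known pairs, with some in both. In each library the log2 difference between both genes per kilobase was taken, and limma tested whether its mean over 3 libraries differed from 0. At an adjusted p under 0.05, 505 of the 593 pairs differed, or 85.2% of all pairs tested. Of the 108 known pairs, 95 differed, which is close to that background. At least 2-fold differences were found for 315 pairs (53.1% of all) and for 65 of the known pairs, and at least 10-fold differences for 66 pairs (11.1% of all) and 17 of the known pairs. The same gene was higher in all 3 libraries for 546 of 593 pairs. In 109 pairs the coding sequences match at 90% or more of the bases along 50% or more of the shorter gene, and their values are uncertain.

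Pyruvate decarboxylase was dominated by PDC1. PDC1 had 19039, 16419 and 14229 TPM, PDC5 3640, 2634 and 2427, and PDC6 18.6, 13.5 and 16.5. The 3 genes did not overlap in any library. On the log2 scale PDC1 exceeded PDC5 by 2.53 (SE 0.07, limma adjusted p = 3.24e-05) and PDC6 by 10.00 (SE 0.14, adjusted p = 2.25e-05). The codons used differed in the same order. The share of codons that are the most frequent ones in the 100 most expressed genes, a set that includes PDC1 and PDC5, was 80.3% for PDC1, 76.2% for PDC5 and 42.1% for PDC6. The first 75 coding bases are shown with those preferred codons in capitals, from chrXII:234007-234081 (PDC1, minus strand), chrXII:410723-410797 (PDC5, plus) and chrVII:652907-652981 (PDC6, minus) of R64.
PDC1: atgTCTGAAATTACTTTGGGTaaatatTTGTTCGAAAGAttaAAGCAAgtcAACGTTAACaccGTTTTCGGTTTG
PDC5: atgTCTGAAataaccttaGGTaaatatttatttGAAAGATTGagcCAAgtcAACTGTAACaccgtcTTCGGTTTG
PDC6: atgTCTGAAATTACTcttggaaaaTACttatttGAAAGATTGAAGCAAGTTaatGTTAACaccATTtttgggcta
Of 24 codons after the start codon, 19 are preferred in PDC1, 13 in PDC5 and 14 in PDC6, so over this opening stretch PDC5 and PDC6 do not differ in the way their whole genes do.

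Above 100 TPM, genes of higher level also had a higher share of preferred codons, and below it the medians were alike. The median share of preferred codons was 56.9% for genes of at least 1000 TPM, 43.1% for 100 to 1000, 38.8% for 10 to 100, 38.0% for 1 to 10 and 38.8% under 1 TPM, with the 100 genes that defined the codons left out. The Spearman correlation of level and preferred share was 0.378 across 5524 genes, which are not independent replicates. Within pairs, CDC19 had 74.4% against 40.7% for PYK2 and NCE102 57.7% against 32.9% for FHN1. LEU4 and LEU9 had 53.2% and 51.8%. CDC19, NCE102 and LEU4 belong to the 100 genes that defined the preferred codons, so these shares are a description only.

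In glycolysis TDH3 led its isozymes. TDH3 had 14229, 13426 and 14591 TPM, TDH1 1725, 1363 and 1823, and TDH2 719, 530 and 744. The order TDH3, TDH1, TDH2 was the same in all 3 libraries. TDH3 exceeded TDH2 by 4.42 on the log2 scale (SE 0.11, limma adjusted p = 2.32e-05) and TDH1 by 3.11 (SE 0.09, adjusted p = 3.24e-05). TDH2 and TDH3 share much sequence, and only 68.7% of TDH2 is unique, so its level is uncertain. The opening 75 coding bases show how alike they are, with bases that differ from TDH3 in capitals: 7 in TDH2 and 12 in TDH1. They lie at chrVII:883736-883810 (TDH3, minus strand), chrX:454607-454681 (TDH2, minus) and chrX:338271-338345 (TDH1, plus) of R64.
TDH3: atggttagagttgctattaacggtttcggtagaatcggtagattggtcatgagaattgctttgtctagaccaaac
TDH2: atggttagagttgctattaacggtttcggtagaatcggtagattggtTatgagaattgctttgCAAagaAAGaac
TDH1: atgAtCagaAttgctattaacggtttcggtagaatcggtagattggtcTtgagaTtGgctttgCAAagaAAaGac

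CDC19, the main pyruvate kinase, had 4905, 4164 and 4624 TPM and PYK2, its glucose-repressed paralog, 45.4, 74.3 and 53.2. The log2 difference was 6.33 (SE 0.21, limma adjusted p = 4.37e-05). ADH1, which makes ethanol, had 2113, 1777 and 2398 TPM against 78.8, 84.4 and 79.3 for ADH2, which oxidizes it. For hexokinase the order was the other way round from that known for growth on glucose, where HXK2 dominates. HXK1 had 543, 765 and 556 TPM and HXK2 277, 136 and 244, and HXK1 was higher in all 3 libraries. The log2 difference was 1.55 (SE 0.34, limma adjusted p = 0.0123), the widest in replicate 2. ENO1 and ENO2 differed by 0.66 on the log2 scale, with values that their shared sequence makes uncertain.

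Several pairs with forms known from low or normal oxygen were split in both directions. HYP2, the aerobic form of the translation factor eIF5A, had 894, 1099 and 998 TPM against 5.04, 7.24 and 7.89 for ANB1, its hypoxic form. The coding sequences of HYP2 and ANB1 are 91.1% identical, so the values of this pair are uncertain. PET9, the main mitochondrial ADP/ATP carrier, exceeded AAC3, the hypoxic carrier, by 8.04 on the log2 scale (SE 0.14, limma adjusted p = 2.25e-05). The cytochrome genes had the opposite order. CYC7, known as the hypoxic cytochrome c, had 191, 247 and 269 TPM and CYC1 41.2, 48.5 and 27.7. COX5B, the hypoxic form of a cytochrome oxidase subunit, had 510, 620 and 568 TPM and COX5A 236, 232 and 212. CYC7 exceeded CYC1 by 2.61 on the log2 scale (SE 0.24, limma adjusted p = 0.00074) and COX5B exceeded COX5A by 1.32 (SE 0.10, adjusted p = 0.0004).

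Of the known pairs of storage carbohydrate metabolism, all 5 differed, against 85.2% of all pairs tested, so this count does not set them apart. PGM2, phosphoglucomutase, had 374, 743 and 545 TPM and PGM1 21.3, 42.0 and 27.8. GSY2, glycogen synthase, had 270, 562 and 375 TPM and GSY1 21.5, 39.9 and 18.7. PGM2 exceeded PGM1 by 4.19 (SE 0.08, limma adjusted p = 2.25e-05) and GSY2 exceeded GSY1 by 3.93 (SE 0.16, adjusted p = 6.58e-05) on the log2 scale. All 4 genes had their highest value in replicate 2. NTH1, neutral trehalase, exceeded NTH2 by 2.01, and TSL1 exceeded TPS3, both regulatory subunits of trehalose synthase, by 1.54. GLG1 exceeded GLG2, the glycogenins that start glycogen chains, by 1.86 (SE 0.22, limma adjusted p = 0.00169).

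At the plasma membrane NCE102 and its paralog FHN1 differed 583-fold, with FHN1 at 10.7, 22.7 and 16.6 TPM. The log2 difference was 9.19 (SE 0.24, limma adjusted p = 2.84e-05). In the Sur7 family FMP45 had 269, 596 and 411 TPM and SUR7 14.4, 38.8 and 17.4, so that FMP45 was 4.24 higher on the log2 scale (SE 0.14, limma adjusted p = 4.35e-05). LSP1 exceeded PIL1 by 0.62 (SE 0.09, limma adjusted p = 0.0034) and SEG1 exceeded SEG2 by 1.06 (SE 0.09, adjusted p = 0.00049). These 4 pairs thus differed by between 0.62 and 9.19 on that scale. PMA1 exceeded PMA2 by 4.47 and CAN1, the arginine permease, exceeded ALP1 by 4.93.

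Among biosynthetic and other pairs, LEU4 had 4464, 3951 and 3727 TPM against 195, 204 and 159 for LEU9, a difference of 4.45 (SE 0.10, limma adjusted p = 2.25e-05). URA10 exceeded URA5, both orotate phosphoribosyltransferases, by 1.64. ACS2 exceeded ACS1, the acetyl-CoA synthetases, by 2.11 and ALD5 exceeded ALD4, the mitochondrial aldehyde dehydrogenases, by 1.38. CTT1, the cytosolic catalase, was 35.8-fold higher than the peroxisomal CTA1, and MPC2 34.7-fold higher than MPC3, both subunits of the mitochondrial pyruvate carrier. TSA1 exceeded TSA2 by 3.38 and POR1, the mitochondrial porin, exceeded POR2 by 4.79.

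**Figure D3:**
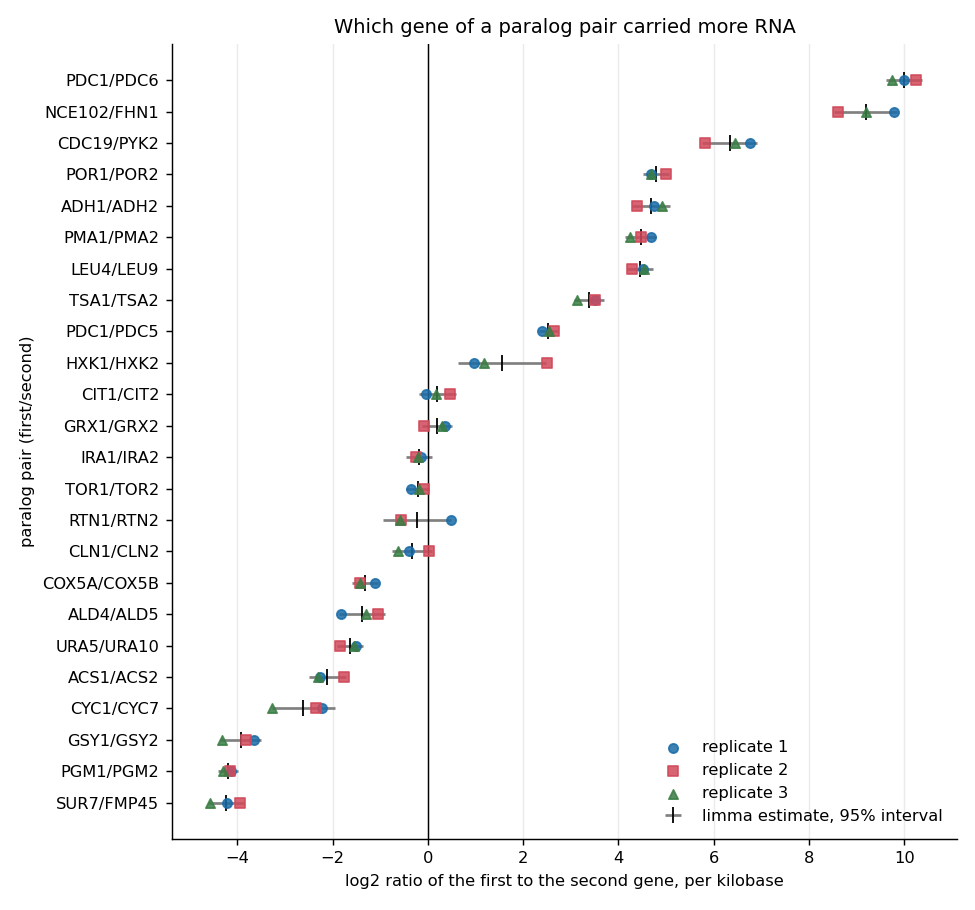
Log2 ratio of the first to the second gene of 24 known paralog pairs, per kilobase; points are the 3 libraries, black ticks the limma estimates and grey bars their 95% intervals. PDC1 and NCE102 exceed PDC6 and FHN1 most, CYC7, GSY2, PGM2 and FMP45 exceed their partners, and CIT1/CIT2, GRX1/GRX2, IRA1/IRA2, TOR1/TOR2, RTN1/RTN2 and CLN1/CLN2 have intervals that include 0.

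The largest difference of all pairs was between YGP1, a secreted glycoprotein of stationary phase and stress, and SPS100, a spore wall protein. YGP1 had 2484, 2315 and 2951 TPM and SPS100 1.22, 0.737 and 0.897, a 2614-fold difference that rests on 13 to 24 normalized reads per library for SPS100. Actin, ACT1, exceeded its relative ARP1 143-fold. RGI1 exceeded RGI2 81.2-fold, LSO2 exceeded LSO1 93.4-fold, KES1 exceeded HES1 62.3-fold, TDA5 exceeded YDL114W 57.9-fold and HXT2 exceeded HXT10 60.1-fold. The lower gene of these pairs had few reads, as HXT10 did at 6.84 to 16.6 normalized reads, except ARP1. HMLALPHA2 was 37.1-fold above MATALPHA2, but the 2 copies are identical, with 0% unique sequence, and their reads cannot be told apart. VHT1, the biotin transporter, exceeded SEO1 by 6.04 on the log2 scale (SE 2.01, limma adjusted p = 0.0462), a value that falls to 3.17 without replicate 1, which had no SEO1 read. Leaving out replicate 2 or 3 instead ended that call, at limma adjusted p = 0.318 and 0.0825.

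Ribosomal protein pairs had a median difference of 1.66-fold over 58 pairs, against 2.16-fold over all 593 pairs, and 51 of the 58 pairs differed, which is 87.9% against 85.2% of all pairs. At least 2-fold differences were found for 19 of the 58, or 32.8% against 53.1% of all pairs. For 47 of them the sequences are alike enough to make the values uncertain. RPL15A exceeded RPL15B by 3.50 and RPS9B exceeded RPS9A by 3.27 on the log2 scale. RPL15A had 1303, 1045 and 1104 TPM and RPL15B 103, 107 and 93.4.

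For 13 of the 108 known pairs no difference passed the test. HSC82 and HSP82, the Hsp90 genes, differed by 0.03 on the log2 scale with a 95% interval from -0.23 to 0.28, though their shared sequence makes the values uncertain. CIT1 and CIT2, mitochondrial and peroxisomal citrate synthase, differed by 0.20 (-0.18 to 0.58), and GRX1 and GRX2, the glutaredoxins, by 0.20 (-0.12 to 0.52). IRA1 and IRA2, regulators of Ras, differed by -0.19 (-0.47 to 0.08), and TOR1 and TOR2, the growth-controlling kinases, by -0.21 (-0.45 to 0.03). A p that misses the threshold does not show that such genes are used equally. The cyclin genes CLN1 and CLN2 were both low, at 10.9, 21.7 and 11.6 TPM and 14.3, 21.5 and 18.0. Of the 95 known pairs that differed, 14 lost the call when 1 library was left out, all of them with differences of 1.14 or less on the log2 scale. Of the pairs that had not passed, CLN1/CLN2, GRX1/GRX2 and TOR1/TOR2 gained a call without replicate 2 and RTN1/RTN2 without replicate 1.

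The replicates differed from one another more than counting error allows, but modestly. Over 5653 genes averaging 50 or more normalized reads, the median SD across the 3 libraries was 0.133 on the log2 scale, against 0.0331 from counting alone. The median coefficient of variation was 9.18%. Between the highest and the lowest library, 233 genes differed more than 2-fold, or 4.12%. Of these, 172 were lowest in replicate 2, 44 in replicate 1 and 17 in replicate 3. Without replicate 2 the count was 27, without replicate 1 it was 151 and without replicate 3 it was 192.

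The most variable genes were mostly those lowest in replicate 2, as were 16 of the 20 with the largest SD. DBP2, an RNA helicase of ribosome biogenesis, had 15495, 1969 and 16643 normalized reads. NSR1, the yeast nucleolin, had 20647, 4124 and 21554. YKR075C had 10426, 911 and 6232, and YOR338W 6740, 956 and 8806, both without a known function. In all of these genes replicate 2 lay well below the other libraries. The others were YBR238C, ECM13, PRM7, STP4, AQR1, RGS2, PFK27, BSC1, GPP2, SUR2, COM2 and TDA6, each between 4.47-fold and 6.43-fold from lowest to highest library. GPP2, a glycerol-1-phosphatase, had 25695, 6920 and 31337 normalized reads. SEO1 and TDA8 were lowest in replicate 1, and the mitochondrially encoded AI5_BETA and COX1 in replicate 3.

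Some genes hardly varied in normalized count. SLY41, of transport between endoplasmic reticulum and Golgi, had a mean of 2676 ± 3.12 normalized reads (SD, n = 3), and LSO2 790 ± 1.56. PBS2, the kinase of the osmotic stress pathway, NUP85 of the nuclear pore, GGC1, MCM6, YMC1, APL2, ODC1 and QCR9 varied by no more than 1.01-fold between libraries. For all of these genes the SD is smaller than counting error alone would give. They were picked as the smallest SDs among all genes averaging at least 100, so low variation is not shown to be their trait. In TPM, SLY41 had 98.0, 108 and 93.9.

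Whole functions moved together between libraries. The 60 ribosome biogenesis genes had a median deviation from their own mean over the 3 libraries of 0.39, -0.53 and 0.15 on the log2 scale in replicates 1, 2 and 3. They were lowest in replicate 2 for 59 of 60 genes, against 37.6% of the 5887 genes that averaged 10 or more. Of the 60, 25 exceeded a 2-fold range. The cytosolic ribosomal proteins deviated by 0.16, -0.24 and 0.09, with 137 of 138 lowest in replicate 2, and the translation factors by 0.14, -0.25 and 0.09, with 28 of 31. Scaled by total reads, which shifts the median of all genes in replicate 2 by 0.10, the counts were 59 of 60 and 121 of 138. NSR1, DBP2 and NOP1, which encodes fibrillarin, led this list, NOP1 with 6369, 1985 and 5441 normalized reads.

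GATGAG, the PAC element known from ribosome biogenesis genes, was present within 300 bases upstream of 57 of the 60 genes, on either strand, against 18.8% of all nuclear coding genes. The stretches below, with the 6 letters in capitals, belong to the 4 list members of largest SD with a match and room around it, the genes most reduced in replicate 2. They lie at chrXIV:413472-413501 (DBP2, plus strand), chrVII:807826-807855 (NSR1, minus), chrXIII:851675-851704 (HAS1, minus) and chrIV:1267328-1267357 (UTP5, plus) of R64. In DBP2 and NSR1 the match is on the opposite strand and reads as its reverse complement. HAS1 and UTP5 were each counted with 2 matches in their windows, and in the HAS1 stretch another match overlaps the marked letters.
DBP2: tttacgccgatgCTCATCgcagaaaatttt
NSR1: ttgcaagggcagCTCATCgcaagaacgaaa
HAS1: ctttagcgatgaGATGAGattttatagtgt
UTP5: cgcagctgaagcGATGAGgtgaaaaaatta
HAS1, an RNA helicase, had 3329, 919 and 2813 normalized reads.

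Other lists had other patterns. The 18 trehalose and glycogen genes deviated by -0.38, 0.33 and 0.06, with 14 of 18 highest in replicate 2 and none lowest there, against 39.8% of all genes highest in replicate 2. TSL1 had 20582, 44936 and 37022 normalized reads. The 29 cell cycle genes deviated by -0.22, 0.18 and 0.01, with 22 highest in replicate 2. General stress genes were lowest in replicate 1 and highest in replicate 3, at -0.24, 0.06 and 0.26. The 21 glycolytic genes had their lowest median in replicate 2, as ribosome biogenesis did, at 0.07, -0.26 and 0.21. Mitochondrial ribosomal proteins, with 70 genes, deviated by -0.01, 0.01 and -0.01. What sets the libraries apart was not tested.

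**Figure D4:**
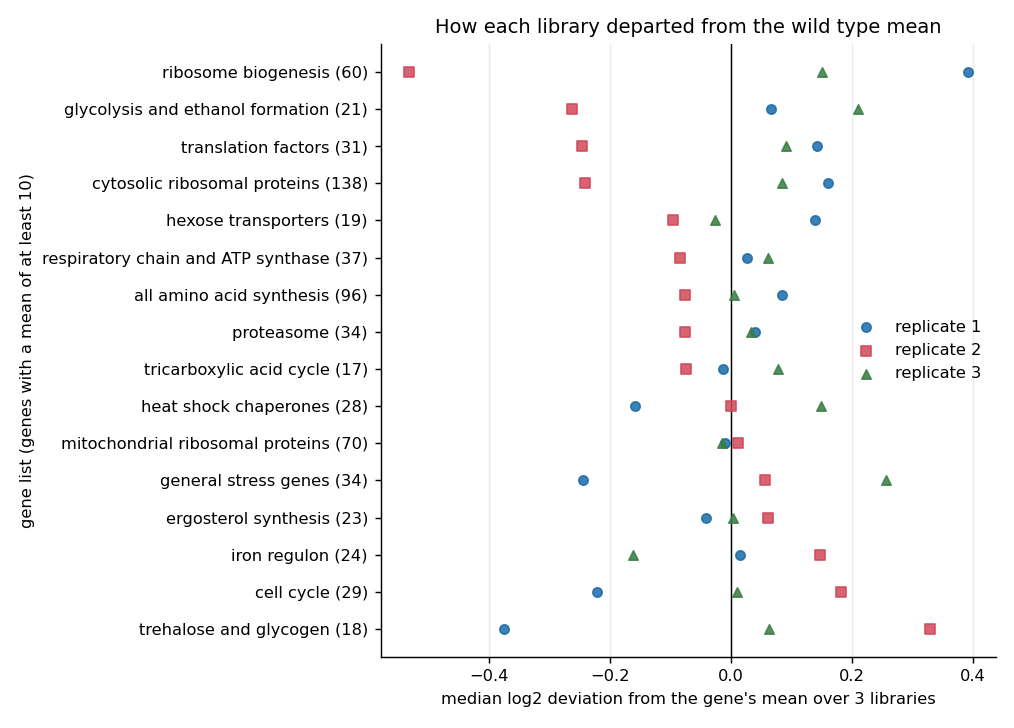
Median log2 deviation of 16 gene lists from each gene's mean over the 3 libraries, with the number of genes used in brackets; points are the 3 libraries and the line marks 0. Ribosome biogenesis lies at -0.53 in replicate 2 and 0.39 in replicate 1, and trehalose and glycogen at 0.33 and -0.38.

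A separate difference touched 4 neighbouring genes at the left end of chromosome I. SEO1, a putative permease gene 7.23 kb from the end, had 0, 368 and 328 reads. TDA8 had 0, 295 and 223, YAL064W-B 5, 152 and 139, and YAL065C 1, 117 and 80. Replicate 1 was almost without reads for all 4, whereas replicates 2 and 3 had similar numbers. Nearer the end, PAU8 had 0, 0 and 5 reads. Farther in, YAL064W had 13, 17 and 6, FLO9 1437, 1416 and 1142, GDH3 2343, 2059 and 1920, and BDH2 5989, 11093 and 8757, so replicate 1 had reads for each of these genes, with BDH2 lowest there. YAL065C and YAL064W-B have close copies, with 53.0% and 58.1% unique sequence, and reads of the copies cannot be told apart. The median deviation of each of the 16 nuclear chromosomes lay between -0.02 and 0.05 on the log2 scale in every library. Mitochondrially encoded genes differed more, with OLI1, an ATP synthase subunit gene, at 103, 77 and 8 reads and VAR1, a ribosomal protein gene, at 66, 46 and 5. The 4 listed mitochondrial genes that averaged 10 or more deviated by 1.07, 0.67 and -1.75, lowest in replicate 3.

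**Figure D5:**
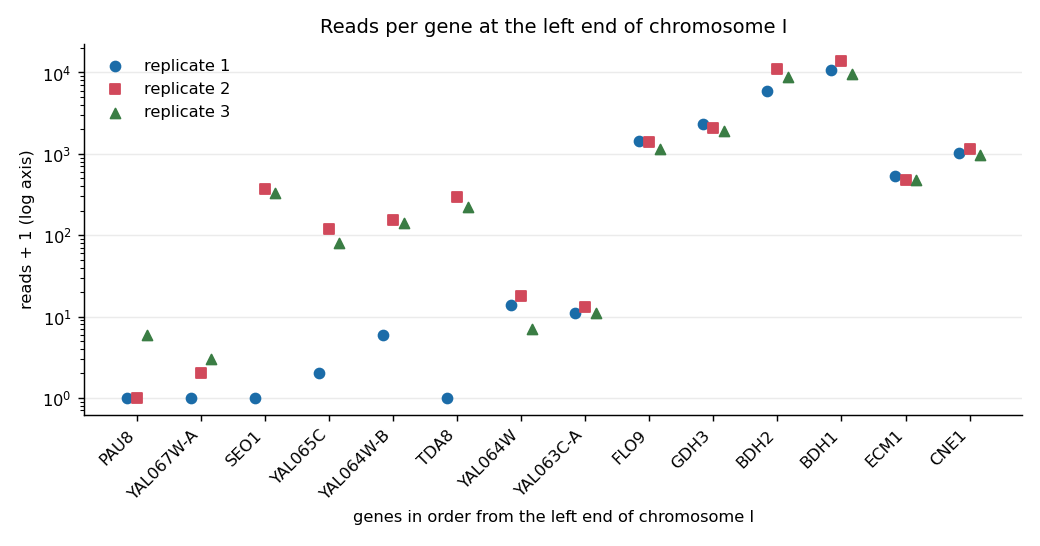
Reads plus 1 (log axis) of 14 genes in order from the left end of chromosome I, in the 3 libraries. Replicate 1 has 0 reads for SEO1 and TDA8 and 1 and 5 for YAL065C and YAL064W-B, while every plotted gene from YAL064W inward has reads in replicate 1.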

How the data were processed

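RNA was measured in 3 wild type libraries of a table that also holds 6 mutant libraries. Per the labels' protocols, cells were washed with NaF and NaN3 and broken with glass beads, and column-purified RNA was cleared of DNA with DNase before poly(A) selection. Per the submitters' processing notes, GSNAP, DESeq2 and DESeq were used with build R64, and no version is stated. How reads were counted, on which annotation and with or without strand is likewise not stated, so reads of a gene and an overlapping antisense gene cannot be told apart.

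The authors deposited a signal per gene, read counts already divided by 1 size factor per library, which is called the normalized read count. Dividing each column by its smallest step, the worth of 1 read, gave whole reads for 100% of the values (tolerance 1e-06). The size factors were 1.169, 1.22 and 1.087. A second deposited table of log2 values, transformed by the authors by a method that is not stated, served only as an alternative. Floors and expected counting spread cover counting error only. The p-values measure the spread between these libraries.

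TPM used coding lengths from the RefSeq annotation of R64, which lacked 3 of the gene identifiers. Unique sequence is the share of 50-base windows of a gene found once in the genome. Paralog pairs were reciprocal best BLAST hits of translated genes with at least 30% identity over 70% of the length, plus known pairs written by hand. Pairs whose coding sequences match at 90% or more of the bases, along 50% or more of the shorter one, were treated as uncertain. A pair entered when one gene averaged 10 or more. Differences of log2(value + 1) per kilobase were tested in limma with Benjamini-Hochberg adjustment over all 593 pairs at a threshold of 0.05, after the steps were tested on simulated data. edgeR's quasi-likelihood test on the recovered reads was added after the data were seen, as was the limit of 10 reads for low genes. The tools were R 4.3.3, limma 3.58.1, edgeR 4.0.16, BLAST 2.17.0, numpy 2.4.6 and pandas 2.3.3. Only 1 group is described, so no groups were compared. Alternatives covered the pseudocount, the filter, length, scaling, the transformed values and leaving out each library.

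The members and the gene lists were chosen with earlier results of these data known. Named genes are the 25 highest by count, the 15 highest per kilobase, the ends of each list, the known pairs, the 15 largest pair differences, the 20 most and 10 least variable genes, and markers. The chromosome I genes, GCN4, HAS1, UTP5, NOP1, HOR7, the motif-bearing and spore genes, and some further list members were named after their values were seen. An item in the named set is not reported here. The list of remaining amino acid genes and the Gcn4 motif were also added then.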

Additional observations from a re-analysis of the deposited data

How the results depend on the processing

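No paired analysis was possible because the 3 libraries belong to 1 group and no groups were compared. Of 593 paralog pairs, 505 differed, and 417 to 520 did with other settings or libraries, or 83 to 97 of the known pairs against 95. Without pairs at least 90% identical, 410 of 484 pairs and 80 of 92 known pairs differed. The edgeR test gave 506 and 95. Of the known pairs that differed, 2 changed sign, both without division by length, to -0.24 for PKH1 over PKH2 and 0.17 for SIP1 over GAL83 on the log2 scale. Of those that had not passed, GRE1/SIP18 (to 0.94) and GRX1/GRX2 (to -0.18) changed sign there too, and HSC82/HSP82, PHO11/PHO12, PIR1/PIR3 and SSB1/SSB2 did with a library left out, HSC82/HSP82 and PIR1/PIR3 also in the transformed values. Genes with 0 reads in all libraries numbered 3, and with 1 library left out 6 to 12. With under 3 reads there were 70 and with under 10 there were 248. Genes differing over 2-fold between libraries numbered 233, and 423 without the filter on low values, where few reads give wide ratios. Leaving out 1 library gave 27 to 192, with the lowest number without replicate 2. A share of reads per kilobase moved 45 of 53 list shares beyond their spread, and leaving out a library moved 0. Scaling by total reads moved 37 of the 159 list deviations, and TMM scaling or the transformed values moved 0. At this depth, levels near the limit of 3 reads per library are not resolved.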
